A study of Arabidopsis thaliana with 2 samples.

Results

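The 48 genes described here are nuclear genes for the light-harvesting antennae, both photosystems, the Rieske protein, plastocyanin, ferredoxin-NADP reductase and subunits of the chloroplast ATP synthase, and they were chosen by locus identifier from 20612 loci in the table. They were measured in early globular Arabidopsis thaliana embryos in 2 poly(A) RNA libraries, 1 from dcl1-5 embryos and 1 from wild-type Col-0 embryos, each made from 30 pooled embryos dissected by hand. Plants of both genotypes grew at 20 to 24 °C with 16 hours of light and 8 hours of dark, and the RNA of both pools passed 2 rounds of linear amplification. How the dcl1-5 embryos were recognised, and the genotype of the plants that bore them, are not given in the sources used here. DCL1 encodes the nuclease that cuts microRNAs from their hairpin precursors.

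In chloroplasts, antenna proteins bind chlorophyll and pass light energy to photosystem II and photosystem I. Photosystem II splits water, electrons then run through the cytochrome b6f complex and plastocyanin to photosystem I and on to ferredoxin, and the proton gradient built on the way drives the ATP synthase. Nuclear genes encode the antennae and many subunits, while the plastid genome encodes the reaction-centre proteins. Arabidopsis embryos turn green as they develop and lose chlorophyll as the seed matures.

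With 1 library per genotype there was no replicate check and no test of the genotypes, so every difference below compares these libraries. The dcl1-5 library held 4513588 genome-matching reads and the wild-type library 5611643, so that 1 read was worth 0.222 and 0.178 RPM, the unit of the deposited values (reads scaled to the library's genome-matching total). DCL1 itself (AT1G01040) had 3 reads in dcl1-5, or 0.665 RPM, and 26 reads in wild type, or 4.63 RPM, a ratio of 0.144 with an exact interval of 0.0278 to 0.468. Brackets after a fold hold exact 95% intervals, which cover counting error only, since reads of amplified RNA are not independent molecules. A gene was compared where its mean over both libraries was at least 5 RPM, and it was called higher or lower where log2((dcl1-5 RPM + 1) / (wild-type RPM + 1)), the log2 ratio, reached 1 in size. Printed folds are plain RPM ratios.

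All 48 genes were in the table, passed the 5 RPM filter and had more RPM in dcl1-5 than in wild type. Of these, 47 were called higher and 0 lower, where 33.8% of all 10240 genes compared were called higher and 4.58% lower. Their summed level was 15140 RPM in dcl1-5 and 3641 RPM in wild type, 4.16-fold higher [4.09 to 4.22], or 1.51% and 0.364% of genome-matching reads. Their median log2 ratio was 2.11, against 0.63 over all genes compared, and the middle of the distribution ran from 1.81 to 2.42, against 0.00 to 1.25. Of the 48, 35 lay in the top 10% of compared genes by log2 ratio and 46 in the top 25%, and 28 were at least 4-fold higher, as were 7.82% of all genes. In bulk embryos, more cells of a type and more RNA per cell cannot be told apart.

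The median over all genes was itself above 0, and scaling moved it. Under TMM scaling it was 0.00, the genes called higher and lower were 1535 and 1487 of 10240 (15.0% and 14.5%; 3464 and 469 with the authors' scaling), and 42 of the 48 genes were at least 2-fold higher. With median-of-ratios scaling 43 were, where 19.4% of all genes were, and with a lowess fit on expression subtracted 45 were, where 13.3% of all genes were. No scaling turned the direction of any of the 48.

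**Figure D1:**
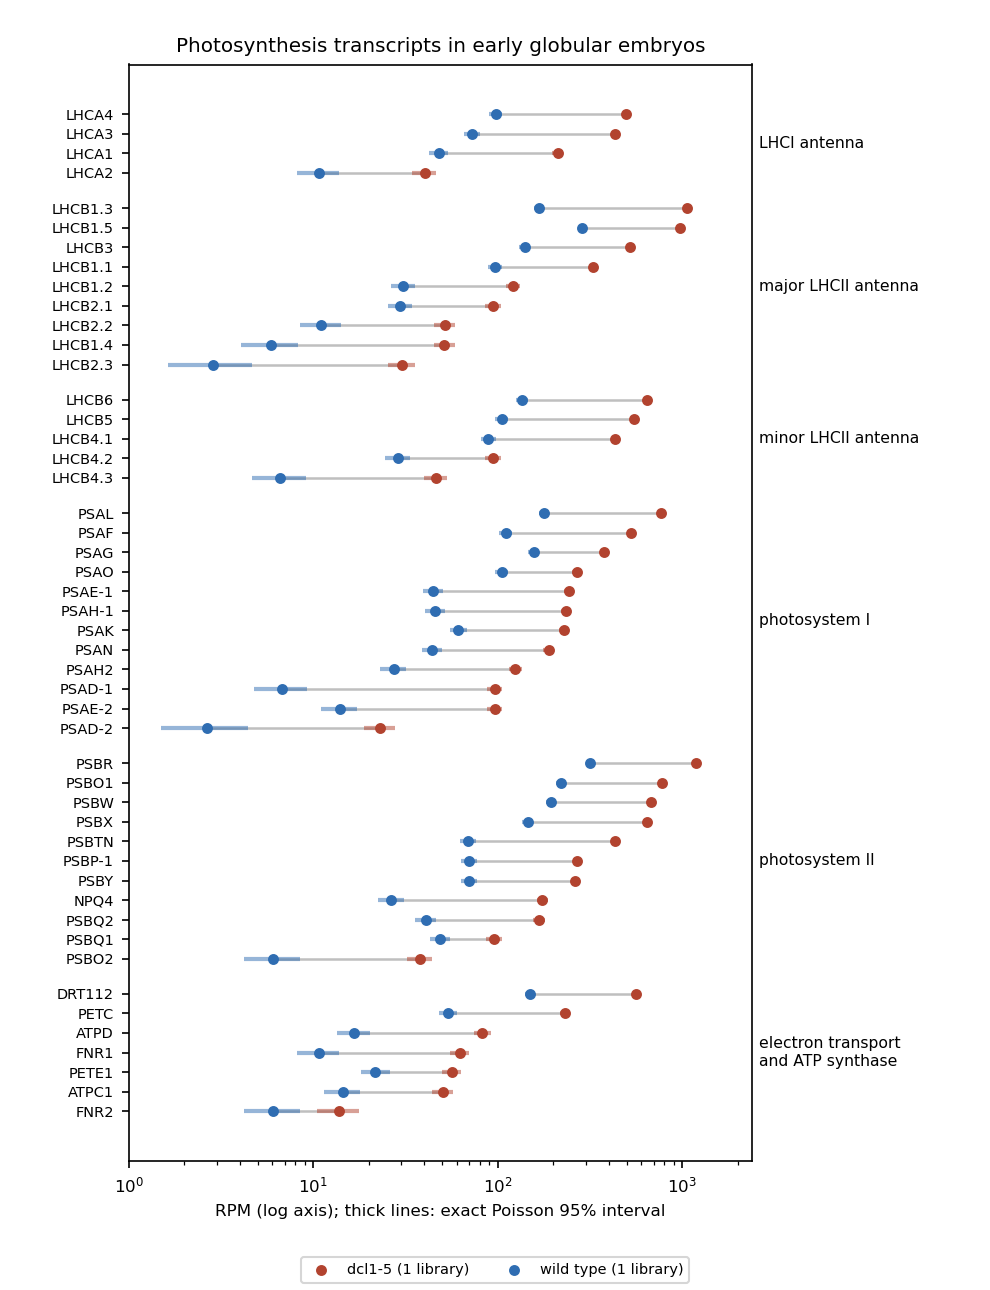
RPM of each of the 48 genes (log axis) in the dcl1-5 library (red) and the wild-type library (blue), with exact Poisson 95% intervals as thick lines and genes grouped by complex. Each red point lies to the right of its blue point. Levels run from 13.7 to 1190 RPM in dcl1-5 and from 2.67 to 317.9 RPM in wild type.

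The 4 antenna genes of photosystem I among the 48 were all called higher. LHCA3 (AT1G61520) had 429.4 RPM in dcl1-5 and 72.4 RPM in wild type, 5.94-fold [5.33 to 6.62], the largest fold of the 4. LHCA4 (AT3G47470) had the highest level, with 495.4 RPM in dcl1-5 and 97.3 RPM in wild type, 5.09-fold [4.63 to 5.60]. LHCA1 (AT3G54890), which pairs with LHCA4 in the antenna belt, had 210.9 RPM in dcl1-5 and 47.8 RPM in wild type. LHCA2 (AT3G61470) had the smallest ratio, with 40.1 RPM in dcl1-5 and 10.7 RPM in wild type, 3.75-fold [2.79 to 5.11]. The group's median log2 ratio was 2.23 and its summed level was 5.15-fold higher [4.85 to 5.48].

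The 9 genes of the major photosystem II antenna, whose LHCB1, LHCB2 and LHCB3 proteins form trimers, were all called higher, with a median log2 ratio of 1.94. LHCB1.3 (AT1G29930) had 1062 RPM in dcl1-5 and 167.3 RPM in wild type, 6.35-fold [5.92 to 6.81], the highest dcl1-5 level of the group. LHCB1.5 (AT2G34420) led the group in wild type, with 968.6 RPM in dcl1-5 and 286.5 RPM in wild type, 3.38-fold [3.19 to 3.58]. LHCB2.3 (AT3G27690) had the largest ratio, on few wild-type reads, with 30.1 RPM in dcl1-5 and 2.85 RPM in wild type (16 reads), 10.6-fold [6.28 to 19]. LHCB2.1 (AT2G05100) had the smallest, with 94.2 RPM in dcl1-5 and 29.6 RPM in wild type, 3.18-fold [2.65 to 3.83], and a log2 ratio of 0.98 under TMM scaling, just under the threshold. LHCB3 (AT5G54270) had 520.4 RPM in dcl1-5 and 139.7 RPM in wild type. The other 4 genes, LHCB1.1 (AT1G29920), LHCB1.2 (AT1G29910), LHCB1.4 (AT2G34430) and LHCB2.2 (AT2G05070), were 3.41-fold, 3.94-fold, 8.74-fold and 4.69-fold higher.

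The authors kept uniquely mapped reads, so copies of LHCB1 could be counted only where their sequence differs. The coding sequences of LHCB1.1, LHCB1.2 and LHCB1.3 were 95.6% to 96.4% identical to each other in RefSeq TAIR10.1, and LHCB1.4 and LHCB1.5 were 86.8% to 91.4% identical to the rest of the family and to each other. The opening 60 coding bases show how few letters separate the copies. Capitals mark bases that differ from LHCB1.3 in the same column.
LHCB1.3: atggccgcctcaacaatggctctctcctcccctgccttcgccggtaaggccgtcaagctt
LHCB1.1: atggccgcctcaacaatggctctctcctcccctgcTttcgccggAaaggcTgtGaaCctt
LHCB1.2: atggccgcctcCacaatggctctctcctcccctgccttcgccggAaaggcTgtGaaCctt
LHCB1.5: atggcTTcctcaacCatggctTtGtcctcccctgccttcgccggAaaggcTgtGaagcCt
LHCB1.4: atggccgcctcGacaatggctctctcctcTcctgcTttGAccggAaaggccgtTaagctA
LHCB1.1 and LHCB1.2 differ from LHCB1.3 at 5 of these bases, LHCB1.4 at 8 and LHCB1.5 at 9. Of the 48 genes, 40 had at least 95% of their 25-base windows unique in the genome, and 8 had under 80% (LHCA2, LHCB1.1 to LHCB1.5, LHCB2.1 and LHCB2.2). The median log2 ratio was 1.88 for those 8 and 2.13 for the 40, and all of the 48 but PSBQ1, one of the 40, were called higher.

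The 5 minor antenna genes, for the monomeric proteins CP29 (LHCB4), CP26 (LHCB5) and CP24 (LHCB6) that link the trimers to photosystem II, were all called higher, with a median log2 ratio of 2.27. LHCB6 (AT1G15820) had 648.0 RPM in dcl1-5 and 135.6 RPM in wild type, 4.78-fold [4.41 to 5.18], the highest level of the 5. LHCB4.3 (AT2G40100) had the largest ratio, with 46.1 RPM in dcl1-5 and 6.59 RPM in wild type, 6.99-fold [4.91 to 10.2]. LHCB4.2 (AT3G08940) had the smallest, with 94.2 RPM in dcl1-5 and 28.7 RPM in wild type, 3.28-fold [2.73 to 3.96]. LHCB5 (AT4G10340) had 544.8 RPM in dcl1-5 and 105.5 RPM in wild type.

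All 12 photosystem I genes were called higher, with a median log2 ratio of 2.2. PSAD-1 (AT4G02770), a subunit at the ferredoxin docking site, had the largest ratio of all 48 genes, with 96.2 RPM in dcl1-5 and 6.77 RPM in wild type, 14.2-fold [10.2 to 20.3]. Its copy PSAD-2 (AT1G03130) had 23.0 RPM in dcl1-5 and 2.67 RPM in wild type (15 reads), 8.62-fold [4.99 to 16.0], and overlaps another locus on its strand, so its count is uncertain. PSAL (AT4G12800) had the highest level, with 766.4 RPM in dcl1-5 and 177.5 RPM in wild type, 4.32-fold [4.02 to 4.64].

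PSAG (AT1G55670) and PSAO (AT1G08380) had the smallest ratios of photosystem I. PSAG had 378.6 RPM in dcl1-5 and 156.5 RPM in wild type, 2.42-fold [2.23 to 2.63]. PSAO had 268.3 RPM in dcl1-5 and 105.3 RPM in wild type, 2.55-fold [2.31 to 2.82]. Under TMM scaling their log2 ratios were 0.60 and 0.67, under the threshold. PSAF (AT1G31330), at the plastocyanin docking site, had 528.6 RPM in dcl1-5 and 110.5 RPM in wild type, and the remaining 6 genes of the group were 3.76-fold to 6.92-fold higher. Of these, PSAE-1 (AT4G28750) and PSAE-2 (AT2G20260), also at the ferredoxin docking site, were 5.44-fold and 6.92-fold higher. PSAH-1 (AT3G16140) and PSAH2 (AT1G52230), where the mobile antenna docks, were 5.12-fold and 4.58-fold higher. PSAN (AT5G64040) had 189.2 RPM in dcl1-5 and 44.0 RPM in wild type, and PSAK (AT1G30380) had 229.5 RPM in dcl1-5 and 61.1 RPM in wild type.

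Of the 11 photosystem II genes among the 48, 10 were called higher, and the median log2 ratio was 1.93. PSBR (AT1G79040) had the highest RPM of all 48 by unique reads, with 1190 RPM in dcl1-5 and 317.9 RPM in wild type, 3.74-fold [3.55 to 3.95]. NPQ4 (AT1G44575), which encodes the PsbS protein of energy-dependent quenching, had 174.6 RPM in dcl1-5 and 26.6 RPM in wild type, 6.58-fold [5.51 to 7.89], the largest ratio of the group. PSBTN (AT3G21055) had 433.4 RPM in dcl1-5 and 69.3 RPM in wild type, 6.25-fold [5.60 to 6.99]. The small subunits PSBW (AT2G30570), PSBX (AT2G06520) and PSBY (AT1G67740) were 3.51-fold, 4.44-fold and 3.75-fold higher.

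The extrinsic proteins of the water-splitting site differed among themselves. PSBO1 (AT5G66570) had 774.6 RPM in dcl1-5 and 220.3 RPM in wild type, 3.52-fold [3.29 to 3.76], and its copy PSBO2 (AT3G50820) had 37.9 RPM in dcl1-5 and 6.06 RPM in wild type, 6.25-fold [4.31 to 9.32]. PSBQ2 (AT4G05180) had 168.2 RPM in dcl1-5 and 40.6 RPM in wild type, 4.14-fold [3.56 to 4.82]. PSBQ1 (AT4G21280) had 95.5 RPM in dcl1-5 and 48.8 RPM in wild type, 1.96-fold [1.68 to 2.28], and with a log2 ratio of 0.95 it was the one gene of the 48 under the threshold. PSBP-1 (AT1G06680) had 270.1 RPM in dcl1-5 and 70.0 RPM in wild type and overlaps another locus on its strand.

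All 7 electron transport and ATP synthase genes were called higher, with a median log2 ratio of 1.91. FNR1 (AT5G66190), a leaf-type ferredoxin-NADP reductase, had 62.3 RPM in dcl1-5 and 10.7 RPM in wild type, 5.82-fold [4.39 to 7.83], the largest ratio of the group. FNR2 (AT1G20020), its copy, had the smallest, with 13.7 RPM in dcl1-5 and 6.06 RPM in wild type, 2.27-fold [1.47 to 3.55]. The plastocyanin gene DRT112 (AT1G20340) had the highest level, with 564.1 RPM in dcl1-5 and 149.9 RPM in wild type, 3.76-fold [3.48 to 4.07]. The other plastocyanin gene PETE1 (AT1G76100) had 56.3 RPM in dcl1-5 and 21.7 RPM in wild type, 2.59-fold [2.08 to 3.24]. Under TMM scaling FNR2 and PETE1 had log2 ratios of 0.46 and 0.68, under the threshold. PETC (AT4G03280), the Rieske protein, and the ATP synthase subunits ATPC1 (AT4G04640) and ATPD (AT4G09650) were 4.29-fold, 3.50-fold and 4.99-fold higher.

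**Figure D2:**
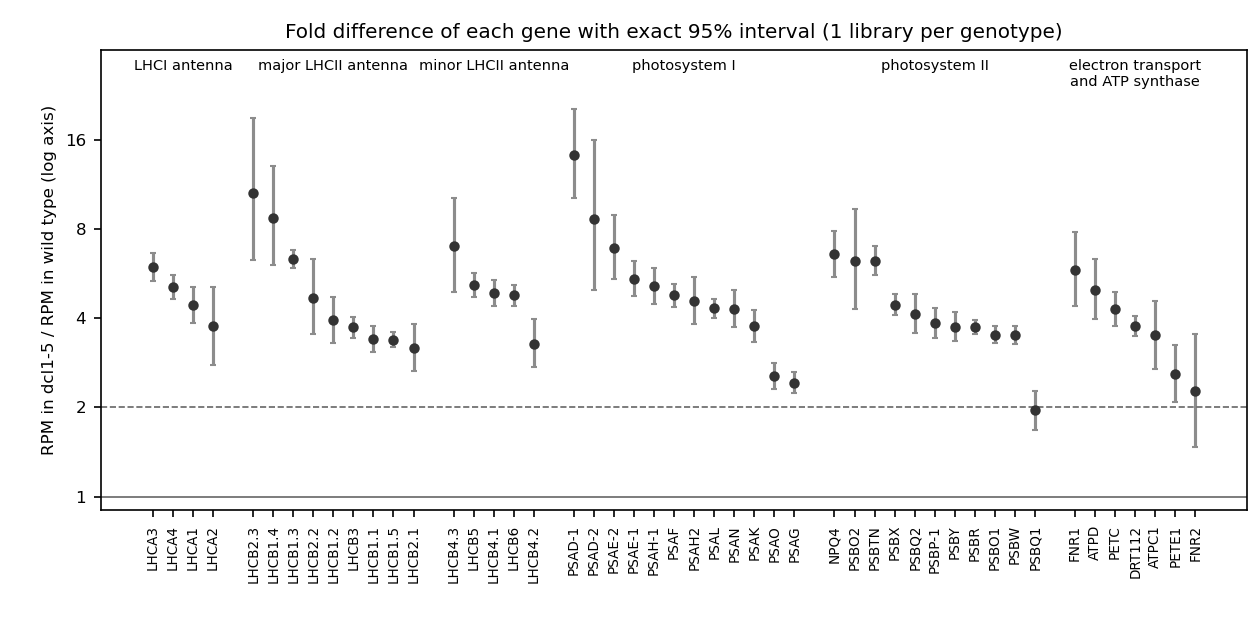
Fold of each gene (dcl1-5 RPM over wild-type RPM, log axis) with its exact 95% interval, grouped by complex, with a dashed line at 2-fold. The points run from 1.96-fold for PSBQ1 to 14.2-fold for PSAD-1, and the intervals of 46 of the 48 genes lie wholly above 2, the exceptions being PSBQ1 and FNR2. The intervals cover counting error only, and the share of all genes with such an interval was not computed. With the authors' scaling, used here, 33.8% of all genes compared were called higher.

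On a per-length scale, PSBR had the highest level in both libraries, with 1518 RPM per kb of exon in dcl1-5 and 405.5 in wild type. Full exon lengths were used although only uniquely mapped reads were counted, so copies with few unique windows are understated. PSBR had 100% of its windows unique, LHCB1.5 64.3% and LHCB1.3 60.5%, so the rank of PSBR over these copies is uncertain. The lowest per-length level in dcl1-5 was that of FNR2, 7.49 RPM per kb, and the lowest in wild type that of LHCB2.3, 1.95 RPM per kb. The order of the 48 genes was close in both libraries (Spearman's rho 0.97 over 48 genes, a description, since genes are not independent replicates).

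The split between copies of a family differed between the libraries for most of the pairs compared. PSBQ1 took 36.2% of the PSBQ reads in dcl1-5 [33.5 to 39, Wilson] and 54.6% in wild type [50.2 to 58.9], an odds ratio of 0.473 [0.38 to 0.587], so PSBQ2 was the larger copy in dcl1-5 and PSBQ1 the larger in wild type. FNR1 took 81.9% of the FNR reads in dcl1-5 [77.5 to 85.6] and 63.8% in wild type [53.8 to 72.8], an odds ratio of 2.56 [1.5 to 4.36]. LHCB1.3 took 52.3% of the reads of LHCB1.3 and LHCB1.5 in dcl1-5 [51.3 to 53.3] and 36.9% in wild type [35 to 38.8].

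LHCB2.1 took 75.8% of the reads of LHCB2.1 and LHCB2.3 in dcl1-5 [72 to 79.1] and 91.2% in wild type [86.2 to 94.5]. For the PSAD, PSAE and PSAH pairs, for LHCB1.1 with LHCB1.2 and for LHCB4.1 with LHCB4.3, the odds ratio's interval included 1, from 0.469 at the low end to 3.2 at the high end. These intervals hold for the reads of these libraries and not for the genotypes.

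**Figure D3:**
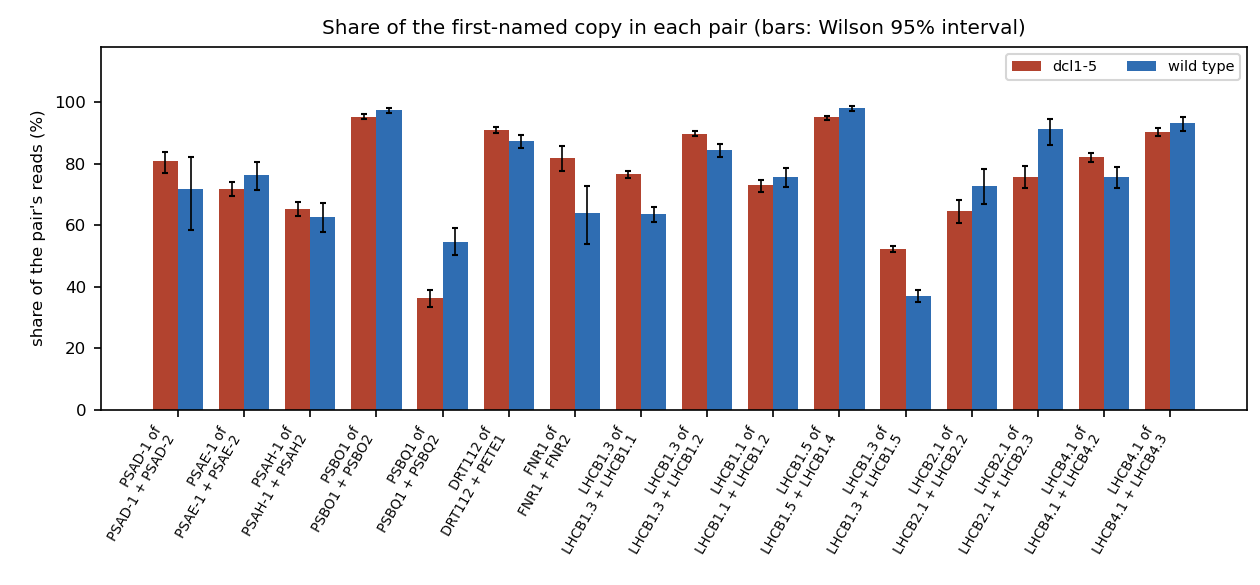
Share of reads (%) that the first-named copy took within each pair of related genes, dcl1-5 in red and wild type in blue, with Wilson 95% intervals. The PSBQ1 share is 36.2% in dcl1-5 and 54.6% in wild type, while the PSAH-1 share is 65.2% and 62.6%.

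The bases upstream of the 48 genes were searched on both strands for CACGTG (the G-box), CCAATC or GATTGG (an element bound by GLK factors) and GATAAG or CTTATC (the I-box), in the 250 bases before each gene's start in RefSeq TAIR10.1. CACGTG was in 10 of 48 windows, or 20.8%, against 6.49% of 27443 protein-coding genes. CCAATC was in 14 of 48, or 29.2%, against 10.2%. By group it was in 10 of the 18 light-harvesting genes and 3 of the 7 electron transport and ATP synthase genes. It was in 1 of the 11 photosystem II genes and 0 of the 12 photosystem I genes. GATAAG was in 12 of 48, or 25.0%, against 12.3%. At least 1 of these elements was in 23 of 48 windows, or 47.9%, against 26.1% of all genes.

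In all, 5 motif counts were examined. The other 2 were added after the motifs above had been fixed, namely AAAATATCT or AGATATTTT (the evening element), in 1 of 48 windows or 2.08% against 2.36% of all genes, and a G-box with an I-box in the same window, in 3 of 48 or 6.25% against 0.922%. No test was made of any of them. Of the 48 windows, 20 overlap an exon of another gene. The median log2 ratio was 2.25 for the 23 genes with at least 1 of the 3 elements and 1.93 for the 25 with none, but 2.13 for genes with CCAATC and 2.09 for those without it.

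The 150 bases upstream of 6 genes are shown to give the elements' setting, in the gene's own direction with motifs in capitals. They were picked after the matches were known, for windows that hold some, and are not typical, since 25 of the 48 genes had no match.
LHCA4 (chr3:17495034-17495183, minus strand): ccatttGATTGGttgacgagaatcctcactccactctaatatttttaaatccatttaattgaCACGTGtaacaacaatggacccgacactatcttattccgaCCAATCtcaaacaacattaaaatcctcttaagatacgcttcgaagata
LHCB4.1 (chr5:208716-208865, plus strand): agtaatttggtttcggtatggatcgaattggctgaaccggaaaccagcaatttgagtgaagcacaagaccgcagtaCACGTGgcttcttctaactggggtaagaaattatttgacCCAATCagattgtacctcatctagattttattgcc
LHCB2.3 (chr3:10255756-10255905, plus strand): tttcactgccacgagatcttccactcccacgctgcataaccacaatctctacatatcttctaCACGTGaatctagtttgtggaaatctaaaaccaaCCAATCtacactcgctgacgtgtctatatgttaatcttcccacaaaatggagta
LHCB1.3 (chr1:10477735-10477884, plus strand): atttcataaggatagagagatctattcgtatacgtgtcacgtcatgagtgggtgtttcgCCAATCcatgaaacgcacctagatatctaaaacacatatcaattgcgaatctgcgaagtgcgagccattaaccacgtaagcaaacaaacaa
PSBQ2 (chr4:2673244-2673393, minus strand): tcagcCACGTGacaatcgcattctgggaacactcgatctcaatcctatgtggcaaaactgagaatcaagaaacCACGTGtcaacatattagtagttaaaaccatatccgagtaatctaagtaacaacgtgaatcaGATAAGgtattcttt
PSBQ1 (chr4:11334202-11334351, plus strand): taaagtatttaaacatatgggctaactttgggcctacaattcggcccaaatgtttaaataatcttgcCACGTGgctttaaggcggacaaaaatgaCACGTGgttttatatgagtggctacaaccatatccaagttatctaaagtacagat
PSBQ1 and PSBQ2 each hold CACGTG at 2 places, although their folds were 1.96 and 4.14. LHCB4.1 (AT5G01530), with 432.7 RPM in dcl1-5 and 89.1 RPM in wild type, holds CACGTG and CCAATC, as do LHCA4 and LHCB2.3.

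Genes of the same pathway outside the 48 were compared as lists. Of 28 chlorophyll synthesis and Calvin cycle genes at 5 RPM, 24 were called higher and 0 lower, with a median log2 ratio of 1.64, where 33.8% of all genes compared were called higher and their median was 0.63. Under TMM scaling 14 of the 28 were called higher, where 15.0% of all genes were, with a median of 0.98. The highest log2 ratio, 3.23, was that of CHLM, a chlorophyll synthesis methyltransferase, with 53.4 RPM in dcl1-5 and 4.81 RPM in wild type, 11.1-fold [7.44 to 17.2]. CAO had a larger plain fold on 3 wild-type reads, with 10.9 RPM in dcl1-5 and 0.535 RPM in wild type, 20.3-fold [6.55 to 102]. The lowest log2 ratio was that of CHLG, chlorophyll synthase, with 14.4 RPM in dcl1-5 and 12.1 RPM in wild type. It was 0.23, and -0.39 under TMM scaling.

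Of 20 other thylakoid genes, 10 were called higher and 0 lower, where 33.8% and 4.58% of all genes were. Their median was 0.98, which was 0.35 above that of all genes. Under TMM scaling 7 were called higher, where 15.0% of all genes were. OHP1, a helper of photosystem assembly, had 21.1 RPM in dcl1-5 and 2.32 RPM in wild type, and ELIP1, an early light-induced protein, had 31.5 RPM in dcl1-5 and 39.4 RPM in wild type. Of 9 assembly and light-acclimation genes, 7 were called higher and 0 lower, with a median of 1.66, and under TMM scaling 4 were called higher, with a median of 0.99. TAP38, a phosphatase of the antenna, had 26.6 RPM in dcl1-5 and 2.32 RPM in wild type, and STN8, a kinase of photosystem II, had 15.7 RPM in dcl1-5 and 16.0 RPM in wild type.

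Of 17 regulators of photosynthesis genes in the table, 5 reached 5 RPM. Of these, 2 were called higher and 1 lower, where 33.8% and 4.58% of all genes were. SIG6, a plastid sigma factor, had 9.75 RPM in dcl1-5 and 1.96 RPM in wild type, and COP1, a repressor of light responses, had 3.55 RPM in dcl1-5 and 8.55 RPM in wild type. The following regulators were under the 5 RPM filter and were chosen after their values were seen. GLK1 had 15 reads in each library. GLK2 had 30 reads in dcl1-5 and 3 in wild type, a ratio of 12.4 [3.87 to 63.7]. SIG5 had 30 reads in dcl1-5 and 2 in wild type, a ratio of 18.65 [4.73 to 161]. PIF5 had 28 reads in dcl1-5 and 0 in wild type, and SIG2 had 28 and 6. GNC had 0 reads in dcl1-5 and 4 in wild type, and PIF4 had 9 and 17. Of the 17 regulators, 11 had more RPM in dcl1-5 and 6 had more in wild type. GLK1 counts among the 11 only through the smaller depth of the dcl1-5 library. Most genes compared had more RPM in dcl1-5 too, since the lower quartile of their log2 ratio was 0.00. Whether any of these regulators acts on the photosynthesis genes was not tested.

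Of 18 nuclear genes of the mitochondrial respiratory chain, 2 were called higher and 0 lower, against 33.8% and 4.58% of all genes, and 0 were called higher under TMM scaling. The median of the list was 0.42 with the authors' scaling and -0.24 under TMM scaling. SDH1-1 had 28.4 RPM in dcl1-5 and 9.09 RPM in wild type, and COX5B-2 had 76.4 RPM in dcl1-5 and 91.2 RPM in wild type.

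**Figure D4:**
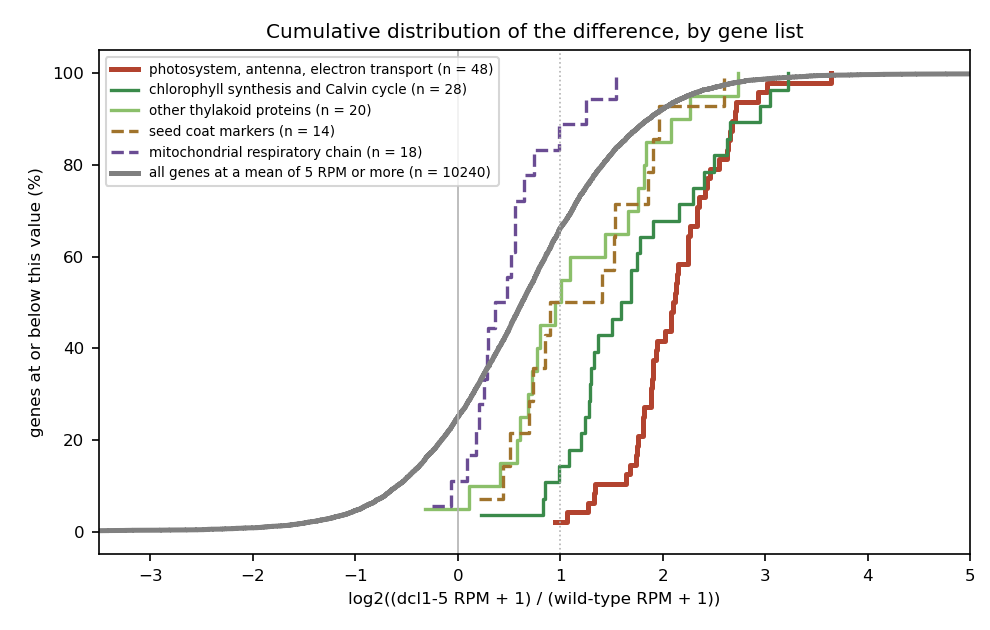
Share of genes (%) at or below each log2 ratio (dcl1-5 over wild type, RPM + 1) for 5 lists and all 10240 genes compared, with lines at 0 and 1. The curve of the 48 genes lies farthest to the right over most of its range, with a median of 2.11, against 1.64 for chlorophyll synthesis and Calvin cycle genes and 0.42 for the mitochondrial chain.

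Markers of tissues around the embryo were compared in the same way. Of 20 seed coat markers, 19 had more RPM in dcl1-5. Most genes compared had too, since the lower quartile of the log2 ratio over all of them was 0.00 and the median 0.63. Of the 14 markers at 5 RPM, 7 were called higher, where 33.8% of all genes were. Under TMM scaling 4 of the 14 were called higher, where 15.0% of all genes were. The median log2 ratio of the 14 was 1.16, or 0.53 above that of all genes. With no filter on low values, the median over all 20 markers was 1.47, against 0.42 over all 20612 loci. The summed level of the 20 markers was 2841 RPM in dcl1-5 and 1637 RPM in wild type, 1.74-fold [1.69 to 1.78]. The sum without TT4, its largest member, was 1037 RPM in dcl1-5 and 524.3 RPM in wild type. SHP2 had 26.6 RPM in dcl1-5 and 3.56 RPM in wild type, LDOX had 151.3 RPM in dcl1-5 and 130.8 RPM in wild type, and no seed coat marker was at 0 in either library.

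Of 8 endosperm markers in the table, 5 were at a higher level in dcl1-5, while MEA, AGL62 and ZOU were at a lower one. These 3 were under the filter, with 6, 1 and 1 reads in dcl1-5 and 15, 9 and 3 in wild type. Of the 3 markers that reached 5 RPM, 1 was called higher, where 33.8% of all genes were. The sum of the 8 was 62.3 RPM in dcl1-5 and 30.5 RPM in wild type. FIS2 had 11.7 RPM in dcl1-5 and 0.535 RPM in wild type (3 reads), 22.0-fold [7.12 to 110], and SUC5 had 17.95 RPM in dcl1-5 and 10.7 RPM in wild type. Of 12 embryo markers at 5 RPM, 2 were called higher and 3 lower, where 33.8% and 4.58% of all genes were. Under TMM scaling these were 2 and 4, where 15.0% and 14.5% of all genes were. The sum of the 15 embryo markers in the table was 3955 RPM in dcl1-5 and 4989 RPM in wild type, but without PDF1, its largest member, 849.2 RPM in dcl1-5 and 773.4 RPM in wild type. WOX8 had 16.2 RPM in dcl1-5 and 4.28 RPM in wild type, and DRN had 1.99 RPM in dcl1-5 and 26.7 RPM in wild type. The part of the seed coat and endosperm in the levels of the 48 genes was not tested.

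**Figure D5:**
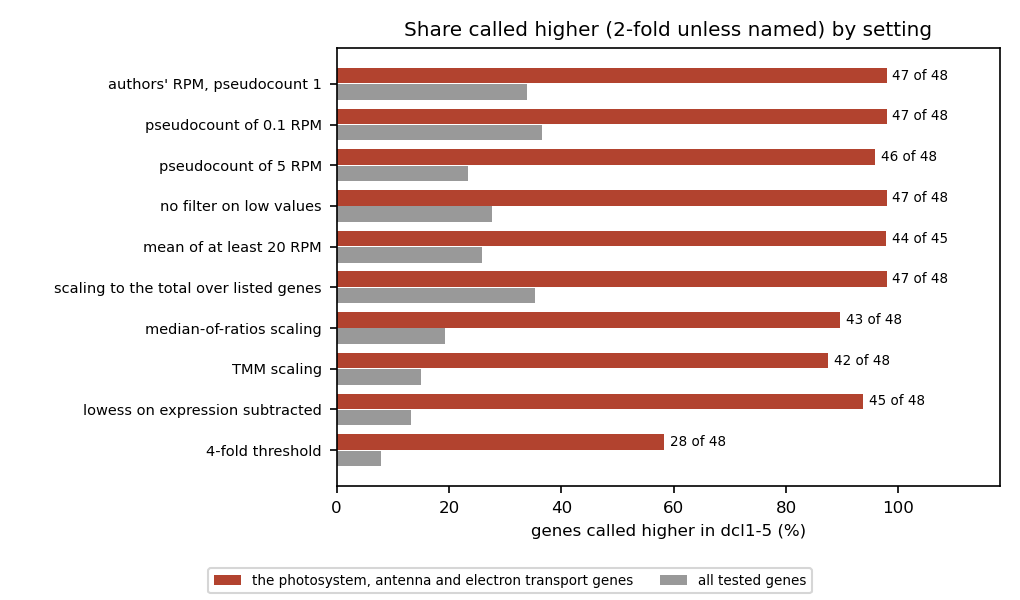
Share of genes (%) called higher in dcl1-5 under each setting, for the photosynthesis genes (red) and for all genes compared (grey). The count of photosynthesis genes is 47 of 48 with the authors' scaling, 42 of 48 under TMM scaling and 28 of 48 at a 4-fold threshold, where the share of all genes is 33.8%, 15.0% and 7.82%.

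With a pseudocount of 0.1 RPM, 47 of the 48 genes and 36.6% of all genes were called higher, and with 5 RPM these were 46 and 23.3%. With no filter on low values they were 47 and 27.7%, and with a mean of at least 20 RPM they were 44 of 45 and 25.8%. Scaling to the total over listed genes gave 47 and 35.3%, and subtracting the median of all genes gave 43 and 14.6%. An exact binomial test on the reads with Benjamini-Hochberg adjustment at 0.05, which compares the 2 libraries and not the genotypes, called all 48 higher, along with 59.6% of all genes.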

How the data were processed

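Reads were aligned by the authors to TAIR9 with Bowtie (version not given in the sources used here), with up to 2 mismatches in a 25 nt seed, and uniquely mapped reads overlapping the antisense strand of annotated genes were counted, per the series' design text. The deposited values are RPM, which the authors scaled to each library's genome-matching total, per the labels. All values were whole multiples of 1 read within 0.01 reads (100%), so reads were recovered. Of the genome-matching reads, 88.0% in dcl1-5 and 90.2% in wild type lay in listed genes, and 3 reads equalled 0.665 and 0.535 RPM. No locus of the plastid genome was in the table, so 22 plastid-encoded photosynthesis genes were not analysed here.

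Log2 ratios used a pseudocount of 1 RPM, which understates changes of low genes. RPM values have exact Poisson intervals, folds exact conditional (Clopper-Pearson) intervals and shares Wilson intervals (scipy 1.17.1). TMM factors came from edgeR 4.0.16 on recovered reads. The calculations were tested on simulated data. Names, lengths, windows and upstream sequences came from RefSeq TAIR10.1, joined by locus identifier, a build other than the authors' TAIR9. The 48 genes and the lists were chosen with earlier results of these data known, and so were the sequences and window lengths shown. In each group the genes given in full were those with the highest and lowest log2 ratio and the highest RPM, and any other of the 48 could be named. From each other list the genes with the highest and lowest log2 ratio at a mean of at least 5 RPM were named. Beyond this rule, and with their values known, CAO, LHCA5, LHCA6, LHCB7, ATPC2, ATPG, MEA, AGL62 and ZOU were named. So were the regulators GLK1, GLK2, SIG5, PIF5, SIG2, GNC and PIF4. The sums without TT4 and PDF1 were added after the values were seen.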

Additional observations from a re-analysis of the deposited data

How the results depend on the processing

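No paired analysis was possible because each genotype has 1 library. The count of genes called higher stayed at 42 to 47 under every scaling, pseudocount and filter tried, and at 44 of 45 with a mean of at least 20 RPM. It was 28 at a 4-fold threshold. It was 30 of 30 when the LHCB1, LHCB2, PSAD, PSAE, PSAH, PSBO and PSBQ copies were left out, which removes PSBQ1, the only gene under the threshold, although its copy is 76.5% identical and 98.6% of its windows are unique. The median log2 ratio of 2.11 was 1.64 under median-of-ratios scaling, 1.44 under TMM, 1.83 with a lowess fit on expression subtracted and 1.48 with the median of all genes subtracted, a setting added after the data were seen. These settings shift all genes, and the median over all genes was 0.18 under median-of-ratios and 0.00 under TMM. Under TMM, 6 genes were under 2-fold (LHCB2.1, PSAG, PSAO, PSBQ1, PETE1 and FNR2). No setting put any of the 48 below 0. With 1 library per genotype, the spread between embryo pools is unknown.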
